A study of Homo sapiens with 6 samples.

Results

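Integrin and laminin chain genes were described in HK-2 cells, an established human kidney proximal tubule line, with and without overexpression of PPM1K. PPM1K is the mitochondrial phosphatase that activates branched-chain ketoacid dehydrogenase. The members were protein-coding genes whose symbol names an integrin alpha chain, an integrin beta chain or a laminin alpha, beta or gamma chain. This name rule used no measured value. Described here are 36 members of the 31369 genes in the count table, namely 17 integrin alpha, 8 integrin beta, 5 laminin alpha, 4 laminin beta and 2 laminin gamma genes. ITGA8 was not analysed here.

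Messenger RNA was sequenced in 3 control samples (NC) and 3 samples overexpressing PPM1K (OE). The genotype labels of the NC samples read WT and those of the OE samples read PPM1K overexpress, while the sample titles name shControl and shPPM1K. All samples carried the labels Day 10 and Chronic kidney disease, although no disease treatment of the cells is described. The PPM1K plasmid was introduced with Lipofectamine 2000, and whether NC received an empty plasmid is not given in the sources used here. The study speaks of biological replication, but whether samples were separate cultures is not given in the sources used here. The p-values therefore measure only the spread between these samples. PPM1K itself had 37, 19 and 53 counts in NC and 3294, 3531 and 2919 in OE, which follows the genotype labels and not the titles. Its log2 fold change was 6.39 (SE 0.13, edgeR adjusted p = 1.1e-18), and plasmid and endogenous transcripts cannot be told apart.

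The libraries held 34635770 to 39850802 counts. NC replicate 2 had counts in 26478 genes, against 22094 to 22913 in the other 5 samples. In the read distribution given by the study, this sample also had the largest shares of intron, intergenic and antisense reads. Without NC replicate 2, 5 members still rose and 10 still fell. Of 8 general epithelial markers, 6 were at an FPKM of at least 1 in every sample. Their summed FPKM was 803.2 to 900.4 in NC and 700.5 to 761.5 in OE, without overlap. KRT8 and KRT19 each fell by 0.48 on the log2 scale, EPCAM by 0.24 and CDH1 by 1.09 (edgeR adjusted p = 0.0011, mean FPKM 0.313 in NC), whereas KRT7 and PAX8 rose by 0.36 and 0.25. The part of these shifts in the results below was not tested. The defining markers of the proximal tubule were nearly absent. None of the 8 analysed reached an FPKM of 1 in every sample, their summed FPKM was 0.49 to 0.74 in NC and 0.36 to 0.43 in OE, and LRP2 had at most 1 count in any sample. Markers of fibroblasts and smooth muscle summed to 3.11 to 3.37 in NC and 1.37 to 1.83 in OE, and those of endothelium to 0.57 to 0.72 and 0.79 to 0.92. None of these 9 and 5 markers reached an FPKM of 1 in every sample. The fibroblast and smooth muscle sum was mostly LUM and COL1A1, whose mean FPKM went from 1.64 to 0.437 and from 1.33 to 0.68. ACTA2 went from 0.23 to 0.367 and did not pass the test (edgeR adjusted p = 0.17). The rest of that list, PDGFRA, PDGFRB, COL1A2, COL3A1, DCN and DES, had at most 9 counts in any sample. As these are bulk samples, fewer cells of a type and less RNA per cell cannot be told apart.

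Integrins are receptors that span the plasma membrane and couple the matrix outside the cell to the actin or keratin skeleton inside it. Each is a pair of an alpha and a beta chain, and the alpha chain largely sets which ligand is bound. Laminins are cross-shaped basement membrane proteins, each assembled from an alpha, a beta and a gamma chain. In the kidney tubule, laminins of the basement membrane are bound by integrins that pair ITGA3 or ITGA6 with ITGB1, and by the ITGA6-ITGB4 pair of hemidesmosomes. LAMA3 and LAMB3 belong to the anchoring laminin of stratified and wounded epithelia. ITGAV pairs with several beta chains, and with ITGB6 or ITGB8 it activates latent TGF-beta.

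After the filter on low counts, 29 of the 36 members were tested, among 15878 genes in all. The other 7 members were ITGA9, ITGA10, ITGA11, ITGAD, ITGAL, ITGB7 and LAMB4, each with at most 11 counts in any sample. Of the 29, 5 were higher in OE and 10 were lower at an adjusted p under 0.05 (edgeR quasi-likelihood test, Benjamini-Hochberg over all tested genes). Among all tested genes 24.9% were higher and 23.7% were lower by the same rule. The genes that rose were ITGA3, ITGB2, LAMB3, LAMC1 and ITGA6. The genes that fell were ITGB6, ITGB4, ITGA1, LAMA1, LAMA3, ITGAV, ITGB5, LAMB2, LAMA5 and ITGB1. With a fold change above 2 or below 0.5 in addition, ITGB6 was called lower, against a background of 3.79%, and 0 members were called higher by edgeR, against 1.73%. DESeq2 also called 0 higher, and 5 members were higher at an unadjusted p under 0.05 in edgeR whatever their fold change. In CPM, 7 members were higher and 11 lower with no overlap between the groups, against 28.2% and 27.1% of all tested genes. The median log2 fold change of the 29 members was -0.08 and that of all tested genes was -0.00321. The median size of the change was 0.24 and 0.27. The changes were therefore of about the size seen over all genes, with ITGB2 and ITGB6 at the ends of the range.

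**Figure D1:**
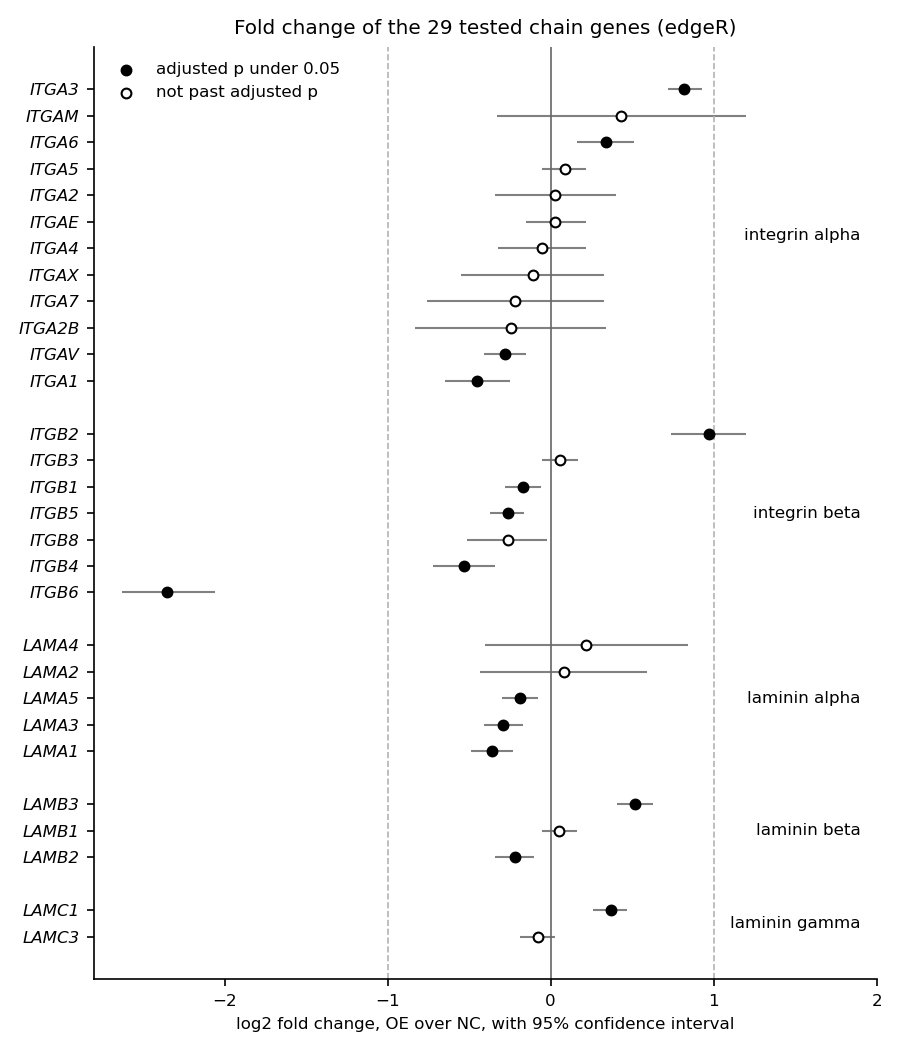
Log2 fold change (OE over NC, x axis) of the 29 tested members, grouped by chain class, with 95% confidence intervals from edgeR. Filled points passed an adjusted p of 0.05 and dashed lines mark a fold change of 2 in either direction. ITGB6 (-2.35) lies beyond the left line, and ITGB2 (0.97) is the highest and just short of the right one.

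The 36 members took 0.495% to 0.511% of all counts in NC and 0.543% to 0.572% in OE. Levels between genes were compared by the deposited FPKM, which is per length. For 3000 genes the length implied by FPKM and summed counts was 1.07 times (median) the length of all annotated exons of the gene. This factor was nearly the same across these genes, with a lower decile of 1.071 and an upper decile of 1.072. It also holds any difference between the library total behind the FPKM and the summed counts. As all exons count towards the length, genes with long alternative exons are listed low. ITGAV and ITGA7 were exceptions, at 0.455 and 0.756 times, so that their FPKM is high relative to that of the other members. Levels were therefore also computed as CPM per kb of the MANE Select transcript, the agreed reference transcript of each gene. This second scale was chosen after the data had been seen. It put the same genes in the top 3 places of each chain class, in the same order, but it changed the order between classes. The 4 highest members, LAMC1, ITGA3, ITGB1 and LAMB1 with mean FPKM values of 94.4, 85.5, 67.3 and 65.4, had 108.2, 183.9, 282.8 and 231.6 CPM per kb, where ITGB1 stood first and LAMC1 last of the 4. In the NC samples LAMB1 had 228.9, 227.1 and 229.1 CPM per kb, but FPKM values of 64.75, 61.71 and 64.58. Its FPKM in NC replicate 2 was thus low for its counts.

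**Figure D2:**
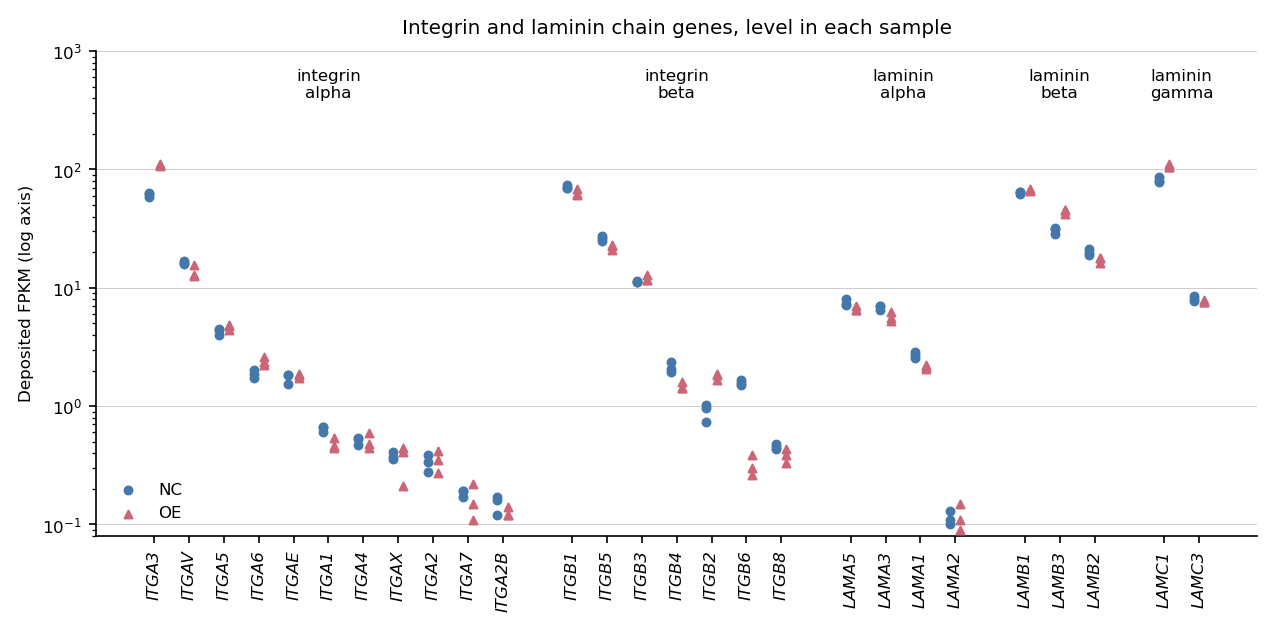
Deposited FPKM (log axis) of the members with a mean of at least 0.1, by chain class and in falling order of the mean. Circles are the 3 NC samples and triangles the 3 OE samples. On this scale LAMC1, ITGA3, ITGB1 and LAMB1 stood highest, with means over all samples of 94.4, 85.5, 67.3 and 65.4, an order that CPM per kb of MANE transcript did not keep.

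Of the laminin gamma chains described, LAMC1 rose and LAMC3 did not pass the test. LAMC1 is the gamma chain of most laminins. Its FPKM was 86.42, 78.74 and 80.53 in NC and 104.19, 105.13 and 111.61 in OE. The groups did not overlap, with a log2 fold change of 0.37 (SE 0.05, edgeR adjusted p = 4.9e-06). LAMC3 was lower by an order of magnitude, with an FPKM of 8.49, 7.67 and 7.97 in NC and 7.65, 7.91 and 7.56 in OE. Its groups overlapped, and its log2 fold change of -0.08 (95% interval -0.19 to 0.03) did not pass the test.

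Among the laminin beta chains LAMB3 rose, LAMB2 fell and LAMB1 did not pass the test. LAMB1, the most widely used beta chain, had an FPKM of 64.75, 61.71 and 64.58 in NC and 65.33, 67.19 and 68.53 in OE. Its OE samples were all above its NC samples, but its log2 fold change was 0.05 (95% interval -0.05 to 0.16, edgeR adjusted p = 0.39). LAMB3, a chain of the anchoring laminin, had an FPKM of 31.40, 28.60 and 32.06 in NC and 45.48, 45.74 and 42.38 in OE. Here the groups were clearly apart, with a log2 fold change of 0.52 (SE 0.05, edgeR adjusted p = 9.3e-08). LAMB2, the beta chain of mature glomerular and muscle basement membranes, had an FPKM of 19.55, 18.96 and 21.40 in NC and 17.88, 17.87 and 16.30 in OE. All OE samples were below the NC samples, with a log2 fold change of -0.22 (SE 0.06, edgeR adjusted p = 0.0029). LAMB3 made up 26.8% ± 0.57 of the summed beta chain FPKM in NC and 34.5% ± 1.08 in OE (SD, n = 3). These shares depend on the length used. With the MANE length they were 13.2% and 17.6%, because LAMB1 has 18592 bases of annotated exons and a reference transcript of 5650.

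The laminin alpha chains were the scarcest class. LAMA5, the main alpha chain of adult kidney basement membranes, had an FPKM of 7.99, 7.22 and 7.31 in NC and 6.50, 6.49 and 7.08 in OE. LAMA3, the alpha chain of the anchoring laminin, had an FPKM of 7.03, 6.96 and 6.55 in NC and 5.23, 5.61 and 6.23 in OE. LAMA1, the alpha chain of embryonic and tubular basement membranes, had an FPKM of 2.87, 2.73 and 2.55 in NC and 2.07, 2.16 and 2.22 in OE. In all 3 genes each OE sample was below each NC sample. The log2 fold changes were -0.19 for LAMA5 (edgeR adjusted p = 0.0057), -0.29 for LAMA3 (2.7e-04) and -0.36 for LAMA1 (6.6e-05), with SEs of 0.05 to 0.06. Without NC replicate 1 the fall of LAMA5 did not pass (adjusted p = 0.066). LAMA5 and LAMA3 had close levels, each LAMA5 value in FPKM being a little above the LAMA3 values of its group. In CPM per kb of MANE transcript their values overlapped in both groups, with NC means of 10.23 for LAMA5 and 10.16 for LAMA3. LAMA2 and LAMA4, the alpha chains of muscle and of vessel basement membranes, had FPKM values of at most 0.15 and did not pass the test. LAMA5 shares exonic sequence on the opposite strand with ADRM1 and LAMA5-AS1, as does LAMB1 with DLD. Opposite-strand exon overlap is also annotated for LAMA1, ITGA1, ITGA6, ITGAV and ITGB8, among other members. Whether counting used strand is not given in the sources used here, so the values of all these genes are uncertain to that extent.

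**Figure D3:**
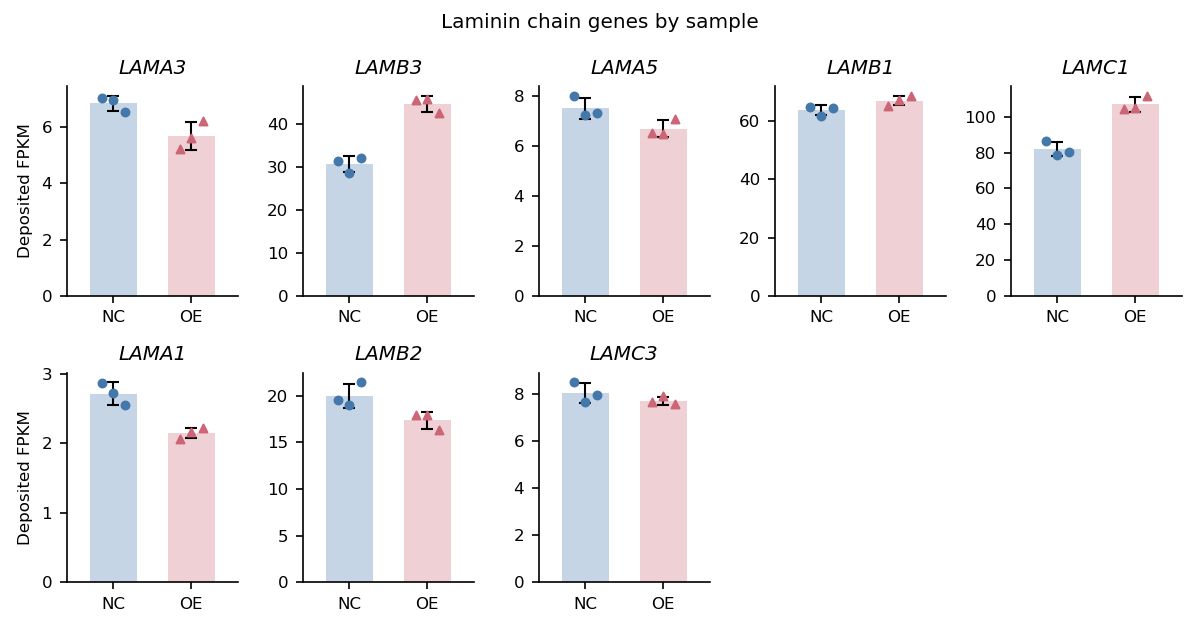
Deposited FPKM (y axis, own scale per panel, from 0) of 8 laminin chain genes in NC and OE. Points are samples, bars are means and error bars are SDs (n = 3). In the LAMA3, LAMB3 and LAMC1 panels the means went from 6.85 to 5.69, from 30.7 to 44.5 and from 81.9 to 107.0.

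LAMA3 and LAMB3 thus moved in opposite directions. The FPKM of LAMB3 over that of LAMA3 was 4.47, 4.11 and 4.90 in NC and 8.70, 8.15 and 6.80 in OE. Every OE ratio was above every NC ratio. On the MANE length the means of this ratio were 3.82 and 6.71. The ratio was chosen after the values had been seen and is given with no test.

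Promoter bases before the start site are shown for LAMA3 and LAMB3, which moved in opposite directions, and for ITGB6, the member with the largest fall. RefSeq (GRCh38.p14) promoters were found for 25 of the 36 members, with 32 start sites, and ITGA3, ITGB2 and ITGB4 were not among them. Motif letters were searched on both strands. They were TGANTCA for AP-1 and TGATGNAA for C/EBP and ATF factors. The GC box was searched as GGGCGG and the E-box as CACGTG. The core promoter box was searched as TATAAA. No motif's letters contain those of another, though neighbouring matches may share bases. Bases inside an annotated exon of the gene are left off the printed stretches. The capitals mark matches to AP-1 or GC box letters on either strand. The stretches are chr18:23872770-23873019 (plus strand) for LAMA3, chr1:209651395-209651624 (minus strand) for LAMB3 and chr2:160200314-160200522 (minus strand) for ITGB6.
LAMA3: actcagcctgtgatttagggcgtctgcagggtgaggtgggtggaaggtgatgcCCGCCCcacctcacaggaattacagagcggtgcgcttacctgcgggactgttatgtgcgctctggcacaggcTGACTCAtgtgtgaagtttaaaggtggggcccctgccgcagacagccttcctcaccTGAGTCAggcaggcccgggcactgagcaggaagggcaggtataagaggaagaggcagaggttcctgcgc
LAMB3: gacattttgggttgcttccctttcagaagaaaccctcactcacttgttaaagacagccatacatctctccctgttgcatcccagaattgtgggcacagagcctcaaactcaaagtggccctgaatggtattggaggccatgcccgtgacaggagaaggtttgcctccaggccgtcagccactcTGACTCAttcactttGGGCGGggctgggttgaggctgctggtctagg
ITGB6: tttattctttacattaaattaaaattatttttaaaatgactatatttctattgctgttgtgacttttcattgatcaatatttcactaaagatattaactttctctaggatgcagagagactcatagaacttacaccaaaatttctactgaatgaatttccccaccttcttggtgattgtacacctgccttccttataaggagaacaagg
Both laminin start sites shown lie inside the annotated genes, at chr18:23689453-23956222 for LAMA3 and chr1:209614870-209652425 for LAMB3, and are not their outermost starts. AP-1 letters stood at 125 and 69 bases before the LAMA3 start site and at 67 before that of LAMB3, while 2 other LAMB3 start sites held none. Among all 35116 promoter entries 6.6% held AP-1 letters in the 250 bases before the start, 42.6% the GC box, 10.7% the core promoter box, 6.3% the E-box and 3.1% the C/EBP and ATF letters. The 250 bases of ITGB6 held none of the 5. A match describes letters in the window only.

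Among the integrin alpha chains ITGA3, the laminin receptor chain of tubule cells, led by far. Its FPKM was 63.54, 58.23 and 61.62 in NC and 107.74, 111.73 and 109.87 in OE. The groups did not overlap, and its log2 fold change was 0.82 (SE 0.05, edgeR adjusted p = 2.6e-11), a 1.77-fold rise. ITGAV, the chain shared by receptors for RGD ligands such as vitronectin, had an FPKM of 16.35, 16.75 and 15.91 in NC and 12.60, 12.93 and 15.50 in OE. All OE samples were lower, OE replicate 3 least so, with a log2 fold change of -0.28 (SE 0.06, edgeR adjusted p = 7.6e-04). ITGA5, the fibronectin receptor chain, had an FPKM of 4.52, 4.02 and 4.42 in NC and 4.40, 4.75 and 4.81 in OE. These groups overlapped, and its log2 fold change of 0.09 (95% interval -0.05 to 0.22) did not pass the test. ITGA3 made up 69.7% ± 0.88 of the summed alpha chain FPKM in NC and 81.7% ± 1.09 in OE (SD, n = 3).

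ITGA6, the other laminin receptor alpha chain of epithelia, had an FPKM of 2.01, 1.88 and 1.73 in NC and 2.24, 2.36 and 2.61 in OE. The OE samples were all higher, with a log2 fold change of 0.34 (SE 0.08, edgeR adjusted p = 0.0024). ITGA1, a collagen receptor chain, had an FPKM of 0.60 to 0.67 in NC and 0.44 to 0.54 in OE, with a log2 fold change of -0.45 (SE 0.10, edgeR adjusted p = 5.2e-04). Its exons overlap those of PELO on the same strand, so reads of the 2 genes may be split between them. The 8 remaining tested alpha chains were ITGA2, ITGA2B, ITGA4, ITGA5, ITGA7, ITGAE, ITGAM and ITGAX, and none passed the test. Apart from ITGA5 and ITGAE, they had mean FPKM values of at most 0.5083, and their 95% intervals reached from -0.83 for ITGA2B to 1.20 for ITGAM.

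ITGB1, the common partner of the laminin, collagen and fibronectin receptor alpha chains, was the highest integrin beta chain. Its FPKM was 73.44, 69.69 and 69.27 in NC and 61.90, 61.22 and 68.14 in OE. All OE samples were lower, OE replicate 3 just so, with a log2 fold change of -0.17 (SE 0.05, edgeR adjusted p = 0.010). Its fall passed the test in 3 of the 6 fits that left out a sample, and not without NC replicate 1 (adjusted p = 0.063), OE replicate 1 (0.050) or OE replicate 2 (0.084). Its exons overlap those of ITGB1-DT on the opposite strand. ITGB5, a partner of ITGAV for vitronectin, had an FPKM of 27.58, 25.05 and 26.17 in NC and 20.99, 22.92 and 22.75 in OE. The groups did not overlap, with a log2 fold change of -0.26 (SE 0.05, edgeR adjusted p = 2.0e-04). ITGB3, another partner of ITGAV, had an FPKM of 11.48, 11.24 and 11.27 in NC and 11.58, 11.60 and 12.76 in OE. Its OE samples were slightly above the NC samples, but its log2 fold change was 0.06 (95% interval -0.05 to 0.17, edgeR adjusted p = 0.36).

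ITGB6, which with ITGAV binds the latency peptide of TGF-beta, showed the largest change of any member. It had 358, 354 and 343 counts in NC and 61, 73 and 86 in OE, and an FPKM of 1.66, 1.58 and 1.52 against 0.26, 0.30 and 0.39. The groups were far apart, with a log2 fold change of -2.35 (SE 0.14, edgeR adjusted p = 1.3e-11). The gene lies on the minus strand of chromosome 2 at chr2:160099667-160200313 (GRCh38). RP11-813C7.1, annotated on the same strand with exons that overlap those of ITGB6, had 93, 69 and 99 counts in NC and 23, 23 and 20 in OE. Both genes were low in the same samples, and reads of the shared exons may be split between them. ITGB8, the other beta chain for latent TGF-beta, had an FPKM of 0.43 to 0.48 in NC and 0.33 to 0.43 in OE. Its log2 fold change of -0.26 (95% interval -0.51 to -0.02, edgeR adjusted p = 0.072) did not pass the test, but it did without OE replicate 3 (adjusted p = 0.029). ITGB5 stood at 16.6, 15.9 and 17.2 times the FPKM of ITGB6 in NC and at 80.7, 76.4 and 58.3 times in OE.

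ITGB4, the hemidesmosome chain that links to keratin filaments, had an FPKM of 2.36, 2.04 and 1.95 in NC and 1.43, 1.41 and 1.61 in OE. Every OE sample was below every NC sample, with a log2 fold change of -0.53 (SE 0.09, edgeR adjusted p = 5.5e-05). Its partner ITGA6 rose, so that the FPKM ratio of ITGA6 to ITGB4 went from 0.852, 0.922 and 0.887 in NC to 1.57, 1.67 and 1.62 in OE. The scarcer chain of this pair was ITGA6 in NC and ITGB4 in OE. ITGB4 and ITGA6 were singled out here after their values had been seen.

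ITGB2, the beta chain of leukocyte integrins, had an FPKM of 0.96, 0.73 and 1.02 in NC and 1.65, 1.84 and 1.88 in OE. The groups did not overlap, with a log2 fold change of 0.97 (SE 0.11, edgeR adjusted p = 2.9e-07). This lies just under the fold change of 2. The value ran from 0.85 to 1.07 when single samples were left out, and the gene was called without NC replicate 1, NC replicate 3 or OE replicate 1. Its alpha partners ITGAL and ITGAD had at most 3 counts in any sample, and ITGAM and ITGAX did not pass the test. None of the 6 leukocyte and platelet markers analysed reached an FPKM of 1 in every sample, with summed values of 0.19 to 0.38 in NC and 0.13 to 0.18 in OE, and PTPRC, which marks all leukocytes, had at most 2 counts in any sample. ITGB2-AS1, on the opposite strand with exons that overlap those of ITGB2, had 55, 68 and 48 counts in NC and 110, 105 and 92 in OE. Its log2 fold change was 0.75 (SE 0.19, edgeR adjusted p = 0.0024), and if counting did not use strand the 2 genes cannot be told apart.

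**Figure D4:**
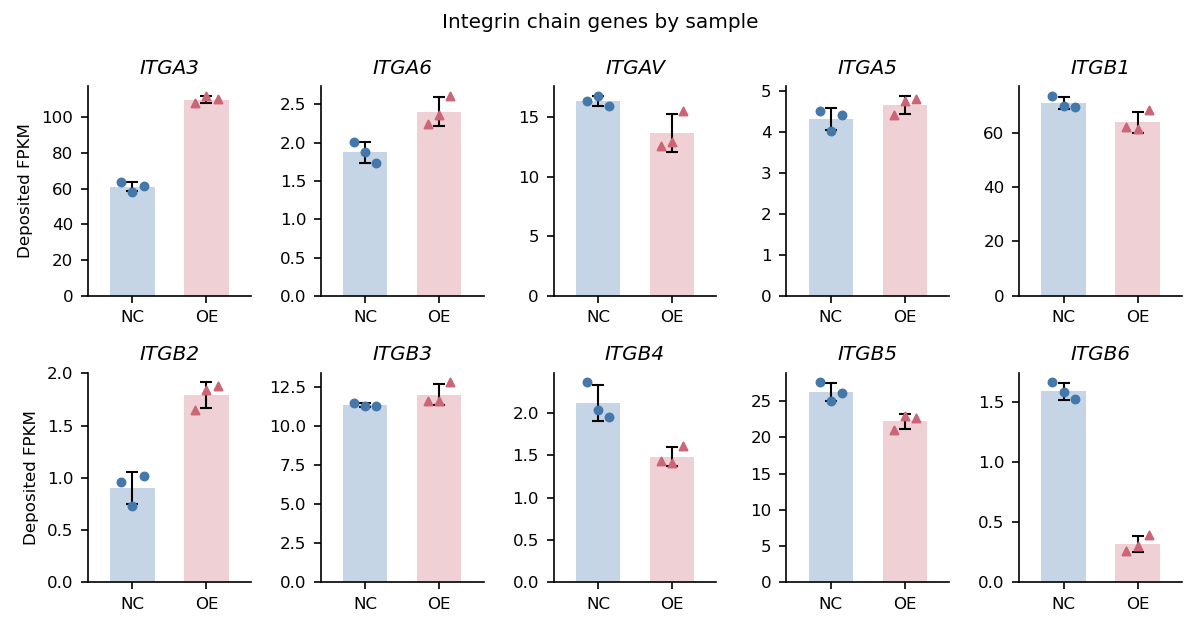
Deposited FPKM (y axis, own scale per panel, from 0) of 10 integrin chain genes in NC and OE. Points are samples, bars are means and error bars are SDs (n = 3). ITGA3 and ITGB2 rose, to means of 109.8 and 1.79, while ITGB4 and ITGB6 fell, to 1.48 and 0.317.

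Which receptors and laminins could be assembled was read from the levels of their chains, without any measurement of protein. Of 23 known integrin pairs, 7 had both chains at an FPKM of at least 1 in every sample. They paired ITGB1 with ITGA3, ITGA5, ITGA6 or ITGAV, ITGAV with ITGB3 or ITGB5, and ITGA6 with ITGB4. The pair of ITGAV and ITGB6 was not among them, but it met this level in every NC sample and in no OE sample. The FPKM of ITGB6 was 1.52 to 1.66 in NC and 0.26 to 0.39 in OE. Of 13 laminin trimers, 7 had all 3 chains at an FPKM of at least 1 in every sample. In each of these trimers the alpha chain was the lowest in both groups. With the same cutoff of 1, CPM per kb of MANE transcript gave the same numbers, 7 of each. The cutoff is not an equal level on both scales, and both come from the same reads, so this is no separate check. For the pair of ITGA3 and ITGB1, the FPKM ratio of the alpha to the beta chain was 0.865, 0.836 and 0.890 in NC and 1.74, 1.82 and 1.61 in OE. The mean ratio on the MANE length was 0.444 in NC and 0.888 in OE. The ratio rose on both scales, but which chain was the higher in OE depended on the length used.

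Partner genes were counted in 8 lists that name no member, with 113 genes tested in all. The lists were chosen with earlier results of these data known, so their shares are a description only. By the test, 26 of them rose (23.0%, against 24.9% of all tested genes) and 46 fell (40.7%, against 23.7%), with a median log2 fold change of -0.08. Of 19 integrin ligands, 2 rose (10.5%, against 24.9% of all tested genes) and 10 fell (52.6%, against 23.7%), with a median of -0.40. TGFBI, a matrix ligand of integrins, went from an FPKM of 49.2 ± 0.41 to 17.6 ± 0.50 (SD, n = 3), a log2 fold change of -1.50 (SE 0.05, edgeR adjusted p = 1.9e-15). VCAM1, the cell surface ligand of the ITGA4-ITGB1 pair, fell by 1.57 on the log2 scale and THBS1, a matrix protein that activates latent TGF-beta, by 0.99. The ligands that rose were ICAM2, a ligand of ITGAL-ITGB2 at a mean FPKM of 0.303 in OE, by 1.33, and the matricellular protein CCN1 by 0.17. Of 7 tested genes for latent TGF-beta and its binding proteins, 1 rose (14.3%, against 24.9%) and 3 fell (42.9%, against 23.7%) (median -0.08). TGFB1 rose by 0.21 on the log2 scale, whereas TGFB2, LTBP2 and TGFB3 fell by 0.37, 0.26 and 0.60.

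Of 19 basement membrane partners of laminin, 3 rose (15.8%, against 24.9% of all tested genes) and 10 fell (52.6%, against 23.7%), with a median of -0.33. SPARC, a collagen-binding matrix protein, went from an FPKM of 91.0 ± 2.74 to 51.9 ± 0.26 (SD, n = 3), a log2 fold change of -0.83 (SE 0.05, edgeR adjusted p = 1.2e-11). HSPG2, which encodes perlecan, and COL4A1, a chain of type IV collagen, fell by 0.57 and 0.55 on the log2 scale. TINAGL1, a matricellular protein of basement membranes, PXDN, which crosslinks type IV collagen, and FRAS1 rose by 0.43, 0.22 and 0.21. Of 5 tested hemidesmosome genes, 1 rose (20%, against 24.9%) and 2 fell (40%, against 23.7%), with a median of -0.11. COL17A1 rose by 1.04 from a mean FPKM of 0.0867, while the tetraspanin CD151 fell by 0.79 and the plakin DST by 0.21. The groups of DST overlapped.

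Of 15 genes of talin, kindlin and integrin activation, 6 rose (40%, against 24.9% of all tested genes) and 3 fell (20%, against 23.7%), with a median of 0.07. RAP1B, a small GTPase upstream of talin, rose by 0.43 on the log2 scale and TLN1, talin itself, fell by 0.20. ITGB1BP1 rose by 0.22 and its partner KRIT1 fell by 0.49. ITGB1BP2 fell by 1.07 (edgeR adjusted p = 0.035) at 9 to 38 counts, with overlapping groups. Of 28 focal adhesion adaptors and kinases, 4 rose (14.3%, against 24.9%) and 11 fell (39.3%, against 23.7%), with a median of -0.12. The kinases FYN and CSK and the adaptor CRK rose by 0.44, 0.30 and 0.28, while the scaffold NEDD9, the tensin TNS1 and the pseudokinase ILK fell by 1.04, 0.94 and 0.57.

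Of 10 tested genes of integrin trafficking, 4 rose (40%, against 24.9% of all tested genes) and 3 fell (30%, against 23.7%) (median 0.05). RAB21, which binds integrin alpha chains during endocytosis, rose by 0.52 on the log2 scale, the endocytic adaptor NUMB by 0.17 and the sorting nexin SNX17 by 0.21. RAB11A, a GTPase of the recycling endosome, its effector RAB11FIP1 and the clathrin adaptor DAB2 fell by 0.45, 0.31 and 0.34. Of 10 tetraspanins and lateral partners, 5 rose (50%, against 24.9%) and 4 fell (40%, against 23.7%) (median 0.06). SLC3A2, which binds integrin beta chains and also forms amino acid transporters, went from an FPKM of 10.1 ± 0.45 to 27.0 ± 0.91 (SD, n = 3), a log2 fold change of 1.40 (SE 0.05, edgeR adjusted p = 1.2e-14). PLAUR, the urokinase receptor, and TSPAN4 rose by 0.65 and 0.39, and CD81, CD9 and CAV1 fell by 0.85, 0.77 and 0.39.

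**Figure D5:**
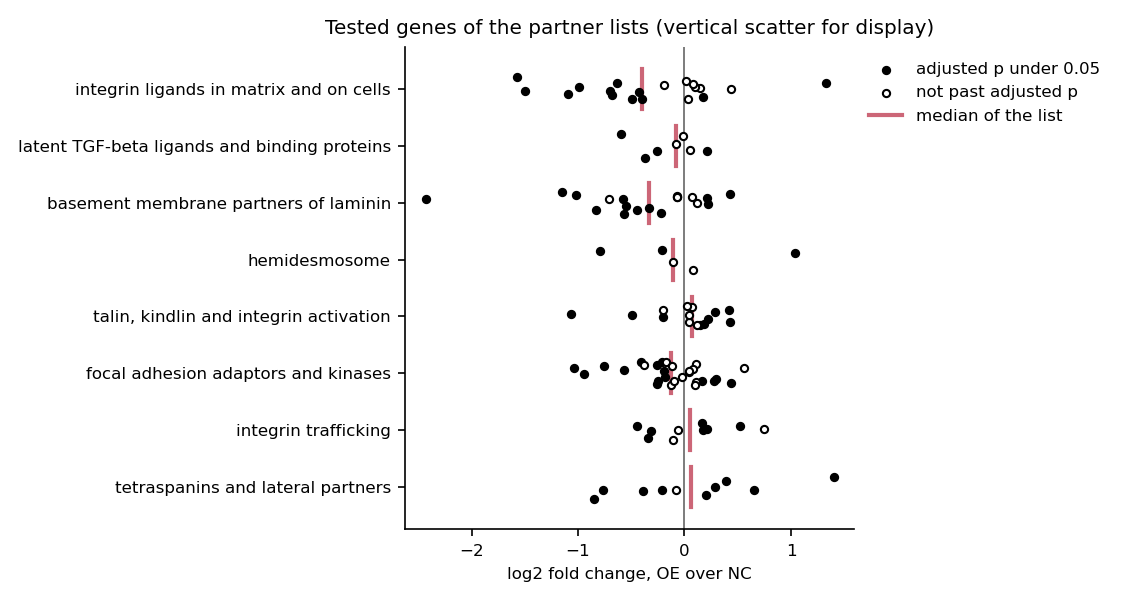
Log2 fold change (OE over NC, x axis) of each tested gene of the 8 partner lists. Filled points passed an adjusted p of 0.05 and the vertical bars are list medians, from -0.40 for the integrin ligands to 0.07 for the activation genes.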

How the data were processed

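RNA of 6 HK-2 samples (3 NC, 3 OE) was sequenced on a NovaSeq 6000 from a stranded mRNA kit. The authors trimmed reads, used HISAT2 to align them to GRCh38, and kept uniquely mapped reads for the counts. The counting program, the annotation and the use of strand are not given in the sources used here, and mm10 also stands among the submitters' processing notes. The deposited counts are raw. The deposited FPKM values, computed by the authors from the same reads, cover 30896 genes to 2 decimals, and for most members their length is close to that of all exons of a gene.

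Groups came from the genotype labels. Members and gene lists were chosen with earlier results of these data known. The count table was fitted with edgeR 4.0.16 in R 4.3.3 (filterByExpr, TMM, quasi-likelihood F-test, Benjamini-Hochberg over 15878 genes). The call rule, that of the study's methods, joined an adjusted p under 0.05 with a fold change over 2 or under 0.5. In simulated counts for this comparison on 15878 genes, 199 of 200 genes with a true log2 fold change of 1.5 in size were recovered, with 0 false calls. Recovery was scored by the call rule, the changed genes were drawn above a floor on mean counts, and all genes had the same dispersion. The simulation therefore does not cover smaller changes judged by adjusted p alone, as in most members described here. The common biological coefficient of variation was 6.3%. DESeq2 1.42.0, limma 3.58.1 on log2(FPKM + 1) or log2(FPKM + 0.1), other scalings and filters, and leaving out each sample were alternatives. Without version, 99.8% of gene IDs matched GENCODE 44, which gave coordinates and overlaps.

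Some genes are not reported here, 1 that the name rule finds among them, and every count over members leaves that gene out. All other members were named. Values in every sample were given for members called or changed more than 1.5-fold past the test, for the 3 highest by mean FPKM in each class, and for ITGA6 and ITGB4 in addition. Up to 3 genes by smallest adjusted p in each direction were named from each list.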

Additional observations from a re-analysis of the deposited data

How the results depend on the processing

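Of 419 member log2 fold changes recomputed under up to 15 alternatives each, 394 kept direction and side of the threshold, 14 lost the threshold, 2 (both ITGB8) passed it and 9 changed sign, all 9 in members that did not pass the test. Near zero, ITGA2 and ITGAE turned to -0.00502 and -0.00398 with upper quartile scaling. Leaving out single samples gave log2 fold changes of -0.115 to 0.175 for ITGA2, -0.171 to 0.0418 for ITGA4, -0.0309 to 0.079 for ITGAE, -0.299 to 0.16 for ITGAX and -0.143 to 0.234 for LAMA2.

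Genes called higher and lower numbered 274 and 601 in edgeR, 68 and 118 with glmTreat against a fold change of 2, 56 and 69 with limma on log2(FPKM + 1), 119 and 213 on log2(FPKM + 0.1), and 56 and 67 on log2(FPKM + 1) with no filter. In that last setting 5 members fell past the test, and in both log2(FPKM + 1) settings 0 members were called lower, since adding 1 shrinks the fold change of low genes such as ITGB6. Members called higher ranged from 0 to 1 when single samples were left out, the 1 being ITGB2. ITGB1, LAMA5, ITGA1, ITGAV and LAMB2 lost the threshold in at least 1 setting.

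Same-numbered samples did not deviate together over all tested genes, with correlations from -0.0663 to -0.00319. This cannot show whether they were handled as pairs, which is not given in the sources used here. With the replicate block 274 and 603 genes were called and 9 members fell, ITGB1 having dropped out. With the MANE length, ITGA3 made up 77.6% of alpha chains in NC and 86.9% in OE. The ratio of group means moved by less than 1 SD in 18 of 18 members of at least 1 FPKM when CPM replaced FPKM. Both come from the same reads and the length of a gene cancels in its ratio, so this is no separate check. Depth left members under about 0.5 FPKM with wide intervals.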
